A study of Mus musculus with 22 samples.

Results

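The 7 genes described here encode the receptors through which catecholamines and natriuretic peptides act on fat cells. They are the adrenergic receptors Adrb1, Adrb3, Adra1a and Adra2a and the natriuretic peptide receptors Npr1, Npr2 and Npr3, out of 21938 protein-coding genes of the GENCODE vM21 annotation of the mouse genome build GRCm38. Each gene's locus is its annotated span with 20 kb on each side, and every ATAC-seq peak of the 22 libraries that touched a locus was taken. These peaks fell into 21 of the 104657 regions formed by merging all peaks that overlap in any library. The genes were chosen as a receptor family. Npr3 was also selected on its promoter signal in short-term obesity, where it had been noted as higher, so its values in that contrast are given as a description, without a test.

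β-Adrenergic receptors couple to the stimulatory G protein and raise cAMP, which activates protein kinase A and lipolysis, and Adrb3 is the classical β-receptor of rodent fat cells. The α2-receptor Adra2a couples to inhibitory G proteins and lowers cAMP, whereas the α1-receptor Adra1a acts through Gq and calcium. Npr1 and Npr2 are receptor guanylyl cyclases that raise cGMP after binding atrial and B-type or C-type natriuretic peptides, and Npr3 is the clearance receptor, which takes the peptides up and has no cyclase domain.

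The libraries came from biotin-labelled nuclei of epididymal adipose tissue of male AdipoERCre x NuTRAP mice. All animals, controls included, carried the tamoxifen-inducible Cre that is driven in adipocytes and the reporter that labels their nuclei and ribosomes, and all had received tamoxifen before the diets began, so only cells that were adipocytes at labelling, and any cells carried along in the pull-down, could be assayed. Each library is 1 animal. C (n = 3) and H (n = 3) were 18 weeks old, on low-fat chow or on 12 weeks of high-fat diet (HFD). HC (n = 3) had 12 weeks of HFD and then 8 weeks of chow for weight loss (WL), and with their controls CC_s (n = 3) they were 26 weeks old. HH (n = 3) had 25 weeks of HFD and were compared with CC_l (n = 2) at 31 weeks of age. HHC (n = 3) had 25 weeks of HFD and 8 weeks of chow and were compared with CCC (n = 2) at 39 weeks of age. The chow of the last 8 weeks differed from the low-fat chow given before and was given to CC_s and CCC as well.

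The deposited lists held 40528 to 60523 peaks per library, covering 128 to 299 Mb, and carry no read counts, so sequencing depth is unknown. All 12 adipocyte marker promoters carried a peak in every library. HC 3 and HHC 3 stood apart, where the median of the peak maxima was 2.43 and 2.25 times the lowest peak maximum, against 3.67 to 8.92 times in the other libraries, and HH 1 carried peaks at 12 of 12 endothelial marker promoters against 2 to 8 elsewhere. This enrichment ratio was 4.70 to 6.40 in H and 6.82 to 8.92 in C. Promoters of 12 mesothelial markers carried peaks at 0 to 2 genes in H, 0 to 3 in HH and 2 to 8 in the other groups, and Bnc1, Upk1b, Krt18 and Gpm6a had none in any library. Macrophage promoters with a peak ranged from 3 to 8 of 12, progenitor promoters from 6 to 10 and lymphocyte promoters from 1 to 4. Fcgr1, Cd3e, Cd4, Cd8a, Zap70 and Il2rb had none in any library. The part of these differences in the results below was not tested.

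Sequence is shown at the 2 genes where the results turn on the start site. The first lines are RefSeq promoters on GRCm38.p6, 250 bases before to 50 after the RefSeq start, which matched 5 of the 7 members. The last line is the stretch of the Npr3 locus that held the highest base of the signal in 21 of 22 libraries. The Adrb1 promoter is chr19:56721867-56722166 on the plus strand, upstream of the annotated GENCODE start site, and is shown because the peaks of the H libraries ended within it. The Npr3 promoter is chr15:11907322-11907621 on the minus strand, upstream of the most 5′ start site. The Npr3 window is chr15:11906289-11906380 on the minus strand, in an intron of the longest transcript, and overlapped 0 annotated exons of the gene. Capitals mark the cAMP response element half-site TGACG.
Adrb1: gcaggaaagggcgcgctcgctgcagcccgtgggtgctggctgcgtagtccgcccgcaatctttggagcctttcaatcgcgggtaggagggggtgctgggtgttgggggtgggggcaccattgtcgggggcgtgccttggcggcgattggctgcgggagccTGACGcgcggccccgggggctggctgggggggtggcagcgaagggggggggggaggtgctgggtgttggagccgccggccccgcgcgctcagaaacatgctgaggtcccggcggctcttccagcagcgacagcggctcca
Npr3: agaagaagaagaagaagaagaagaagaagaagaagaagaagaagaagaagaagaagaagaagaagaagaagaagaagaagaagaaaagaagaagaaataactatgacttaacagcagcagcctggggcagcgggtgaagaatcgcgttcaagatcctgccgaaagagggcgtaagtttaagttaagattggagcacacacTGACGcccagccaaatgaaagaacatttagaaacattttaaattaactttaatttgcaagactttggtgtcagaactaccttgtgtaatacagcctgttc
Npr3 highest bases: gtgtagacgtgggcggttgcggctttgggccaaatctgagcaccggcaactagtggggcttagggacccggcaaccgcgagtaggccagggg

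The 2 promoters differ in base composition, with 72.3% G or C at Adrb1 and 39.0% at Npr3, against a median of 52.7% over 32851 RefSeq promoters. The window of highest bases at Npr3 held 65.2% G or C. On either strand, TGACG matched once in the Adrb1 promoter, once in the Npr3 promoter and at 0 places in the Npr3 window. It is found in 20.8% of all promoters of this length and in the promoters of 3 of the 5 matched members, Adrb1, Npr3 and Adra2a. The full element TGACGTCA (1.79% of all promoters), which contains the half-site, the nuclear receptor half-site AGGTCA (16.3%), the AP-1 site TGANTCA (7.81%) and the C/EBP site TTGCGCAA (0.183%) had 0 matches in all 5. The GC box GGGCGG (35.7%) matched once at Adrb1, once at Adra2a and 2 times at Npr1, and once in the Npr3 window.

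The members differed in how open their loci were. As summed signal per kb of locus, the order of the medians over 22 libraries, each as a percentile among all coding genes, was Adrb3 at 99.6, Npr3 at 98.6, Npr1 at 92.6, Adrb1 at 91.04, Npr2 at 67.5, Adra1a at 39.3 and Adra2a at 11.2. Neighbours in this order overlapped in their ranges, except Npr2 and Adra1a. Adrb3 lay between 95.4 and 99.8, Npr3 between 87.2 and 99.8, Npr1 between 88.0 and 95.02, Adrb1 between 70.5 and 97.1, Npr2 between 54.1 and 79.6, Adra1a between 8.21 and 45.4, and Adra2a between 8.21 and 27.8. The lowest value of each of Adrb3, Npr3, Adrb1, Adra1a and Adra2a came from HC 3 or HHC 3, and without these 2 libraries the lower ends were 98.7 for Adrb3, 94.0 for Npr3, 74.2 for Adrb1, 33.2 for Adra1a and 10.1 for Adra2a. Adra1a and Adra2a then no longer overlapped.

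By length, peaks covered a median of 89.0% of the Adrb3 locus, 78.2% of Npr3, 47.4% of Npr1, 46.6% of Adrb1, 23.1% of Npr2, 6.94% of Adra1a and 0% of Adra2a. The median coding gene was covered over 6.17% to 17.2% of its locus, depending on the library. In the Npr3 gene span, 92.3% of bases lay in a peak in 20 or more libraries, against 62.3% at Adrb3 and 0% at Adrb1, whose recurrent bases lay in the flanks. The Adrb3 peaks also reach over neighbouring genes: its merged region, chr8:27197200-27286912, holds the promoter of Eif4ebp1, and the highest base of the Adrb3 locus lay 29895 bp or more upstream of the Adrb3 start site in every library. The Npr1 promoter lay in a merged region of 87.2 kb that also holds the promoters of Ilf2, Chtop, Snapin and S100a genes, and the Npr2 locus includes the promoters of Spag8, Hint2, Fam221b and Tmem8b, so the locus values of these 3 members are not those of a single gene.

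**Figure D1:**
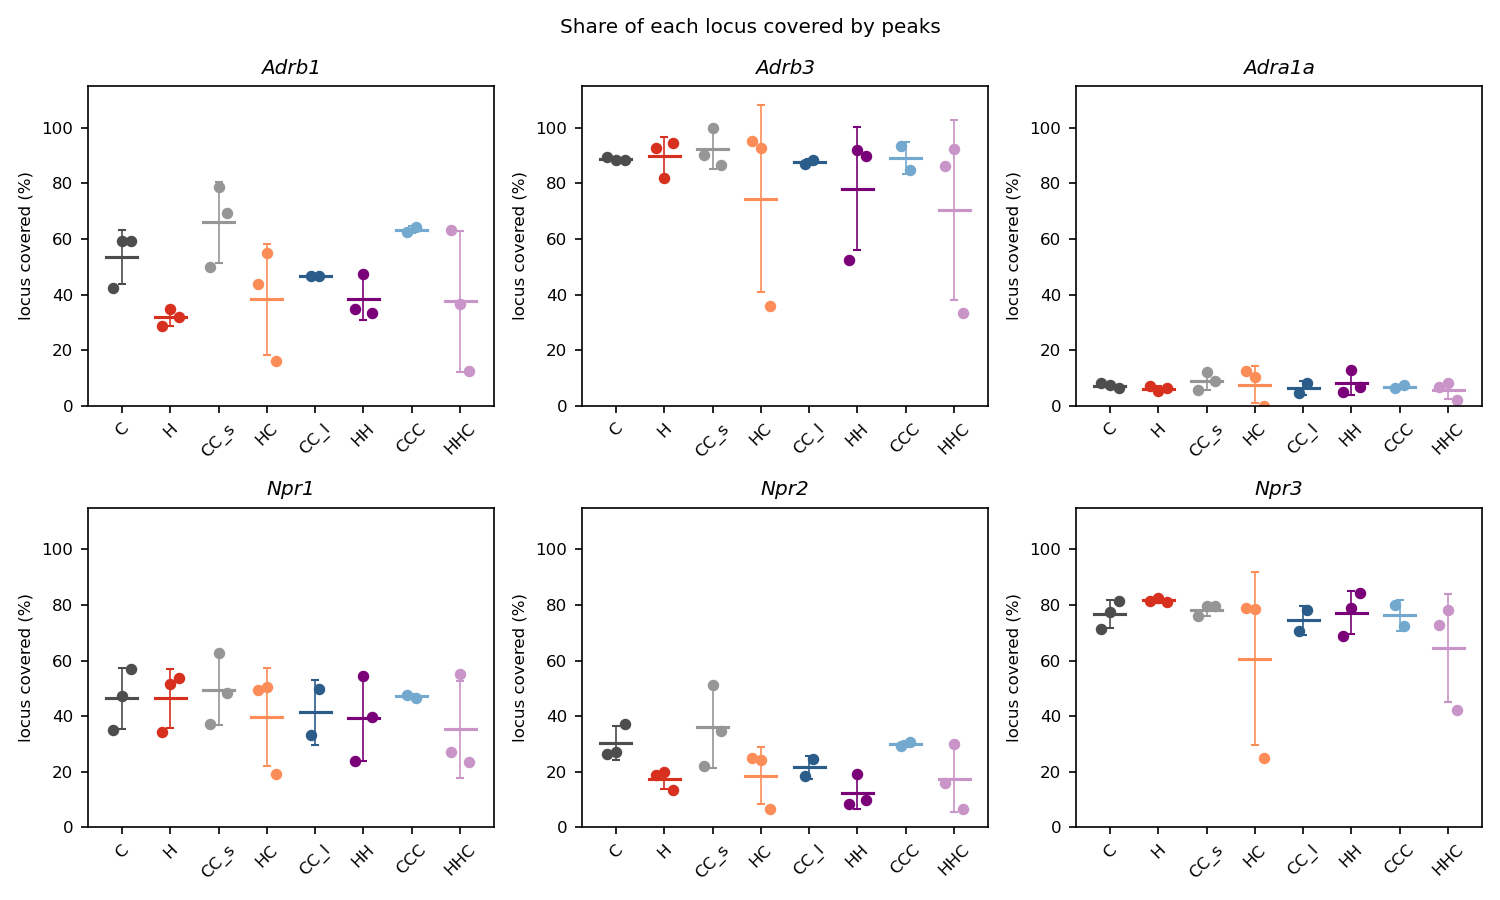
Percent of each locus (gene and 20 kb on each side) covered by peaks for 6 members, per library (points) with each group's mean (line) and SD (bar). Adrb3 and Npr3 are the most covered loci in every library, at their lowest in HC 3 or HHC 3, Adra2a, at 0 in 20 of 22 libraries, is not drawn, and the H libraries lie below the C libraries at Adrb1 and Npr2.

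Promoter signal was compared between groups of the same age. It is the total signal, meaning coverage summed over all bases of every peak that overlaps a window of 2000 bp around a start site, put on a common log2 scale by rank within each library. A value of 14.30 is the floor given to promoters below the ranks shared by all libraries. A promoter was called at an adjusted p below 0.05 and a log2 difference beyond 1 in either direction by limma. At promoters, 1 of 5 tested members was called in H against C, where 1.98% of 12705 tested promoters were called, and 1 was at an unadjusted p below 0.05, against 21.1% of all. None was called in the other pairs, where the shares of all promoters were 0.0866% for HC against CC_s, 0.0843% for HH against CC_l and 0% for HHC against CCC. In each of these 3 pairs 1 of 6 tested members had an unadjusted p below 0.05, beside 6.08%, 7.42% and 4.25% of all promoters. The median log2 difference of the tested members was −0.06, −0.02, −0.03 and −0.75 in these 4 pairs in the same order, and that of all promoters was 0.03, 0.06, 0.0033 and 0.02.

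**Figure D2:**
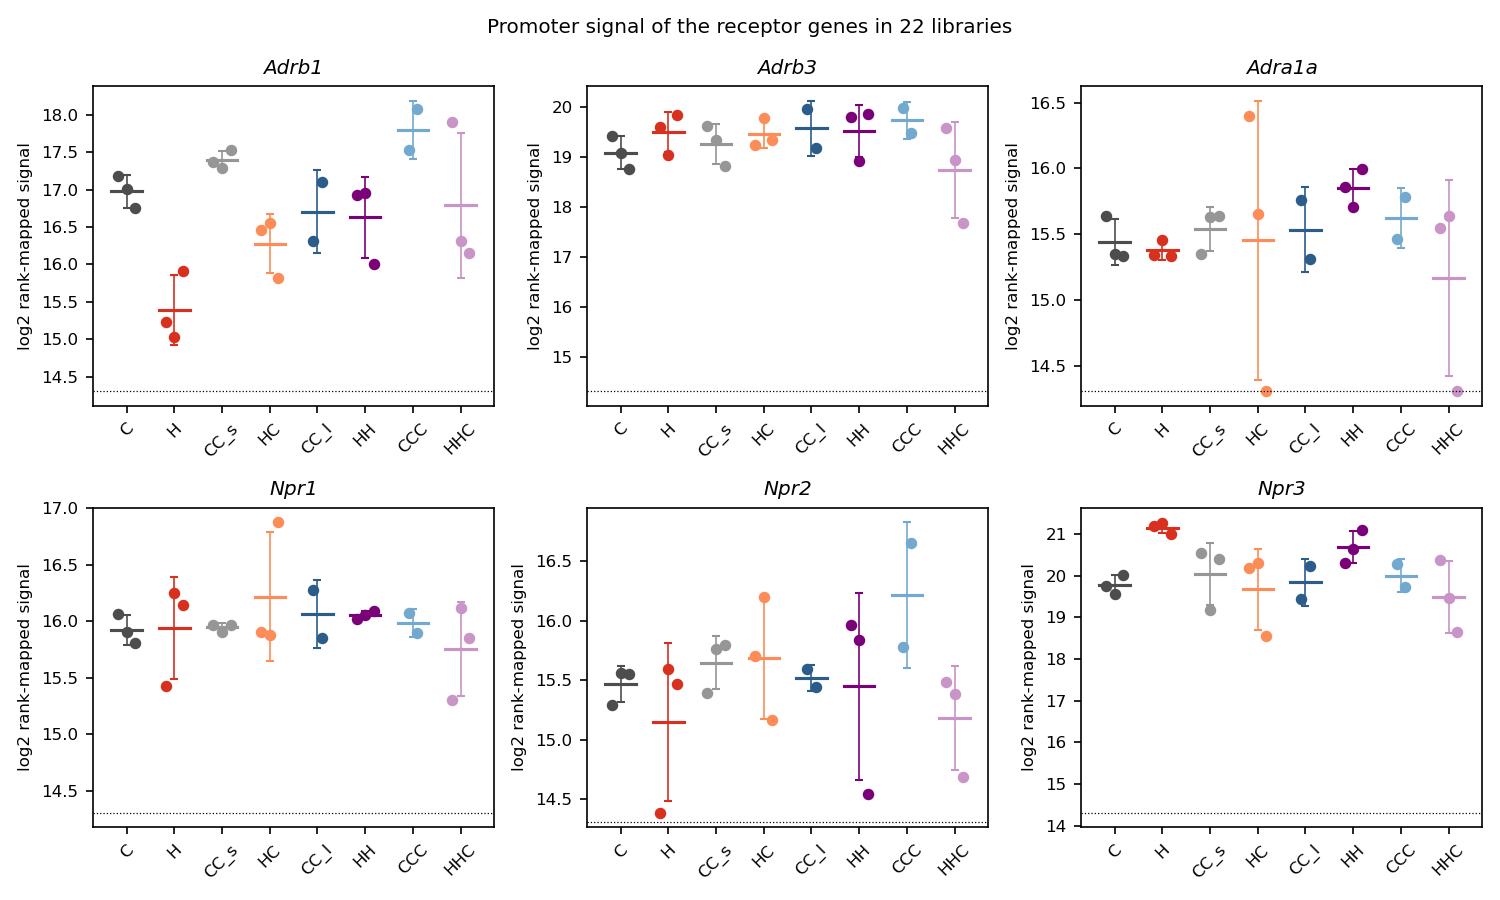
Promoter signal of 6 members on the rank-mapped log2 scale, per library (points) in the 8 groups, with each group's mean (line), SD (bar) and the floor (dotted). The H libraries of Adrb1 (15.03 to 15.92) lie below the C libraries (16.75 to 17.19), and those of Npr3 (21.00 to 21.27) lie above them (19.55 to 20.01).

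Adrb1, the β1-receptor, had a lower promoter signal in short-term obesity. The C libraries were at 17.19, 17.00 and 16.75 and the H libraries at 15.23, 15.03 and 15.92 on the log2 scale. All H libraries lay below all C libraries. Among a library's promoters Adrb1 ranked between 2828 and 4250 in C and between 7723 and 10870 in H. The difference was −1.59 (SE 0.27, 95% interval −2.23 to −0.94), and limma gave an adjusted p of 0.0414. The call rested on its settings: leaving out C 1, H 1, C 2, H 2 or C 3 gave adjusted p-values of 0.0897, 0.135, 0.162, 0.121 and 0.0843, and the maximum signal in place of the total gave −0.65 with an adjusted p of 0.146. With the replicate number as a block in limma the adjusted p was 0.140. The enrichment ratio and the number of mesothelial promoters with a peak were also lower in H than in C. At loci the mesothelial markers went both ways. Of 8 tested, 2 were higher and 2 lower in H at an unadjusted p below 0.05, beside 33.6% of all loci. Of these, 1 was called as higher and 1 as lower, beside 6.29% of all loci. Adipocyte marker promoters had a mean log2 signal of 20.47 to 20.53 in H and of 20.01 to 20.10 in C, with 6 of 12 higher at an unadjusted p below 0.05, beside 21.1% of all promoters in either direction, and a median difference of 0.52. Of these 12, Fabp4 was called, at 1.11 (adjusted p = 0.0272 by limma). Of 6 tested progenitor promoters 3 were lower at an unadjusted p below 0.05. Of 5 tested macrophage promoters 1 was called, Cd14, at −3.71 (adjusted p = 0.00122 by limma), beside 1.98% of all. Cd14 was also the 1 macrophage promoter at an unadjusted p below 0.05, and the list median was −0.00115. Of 3 tested endothelial promoters 2 were higher at an unadjusted p below 0.05, with a median of 0.59. The part of these differences in the Adrb1 result was not tested.

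The peaks at Adrb1 are described here for H and C by height and extent, chosen after the values were seen and without a test. The peak just upstream of the start site had a maximum of 33, 45 and 71 in H and of 133, 140 and 181 in C, and its summed signal was 29405 to 62989 in H and 106796 to 249865 in C, on each library's own scale. The groups did not overlap in either measure. The median maximum of all peaks of a library was also lower in H, at 47, 51 and 64 against 73, 75 and 107 in C. Divided by that median, the Adrb1 maxima were 0.702, 0.882 and 1.11 in H and 1.69, 1.77 and 1.92 in C, which do not overlap, while on the rank-mapped scale the promoter difference with the maximum signal was the −0.65 given above, which did not pass. The highest sum, of C 3, came from a peak of 8849 bp that reaches into the gene. C 2 and H 1 had peaks of nearly the same length, 2378 and 2372 bp, with sums of 131059 and 35707. The 2 kb upstream of the start site were covered over 1841 bp or more in all 22 libraries. In 13 libraries the upstream peak ended 125 to 159 bp before the start site, within the printed promoter sequence. The 2 kb downstream of the start site held a peak in 3 of 3 C libraries, over 593 to 2000 bp, and in 0 of 3 H libraries. They held one in 3 of 3 CC_s, 2 of 3 HC, 1 of 2 CC_l, 2 of 3 HH, 2 of 2 CCC and 2 of 3 HHC libraries. In H, the peak at the promoter was 2.31 to 2.37 kb long.

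**Figure D3:**
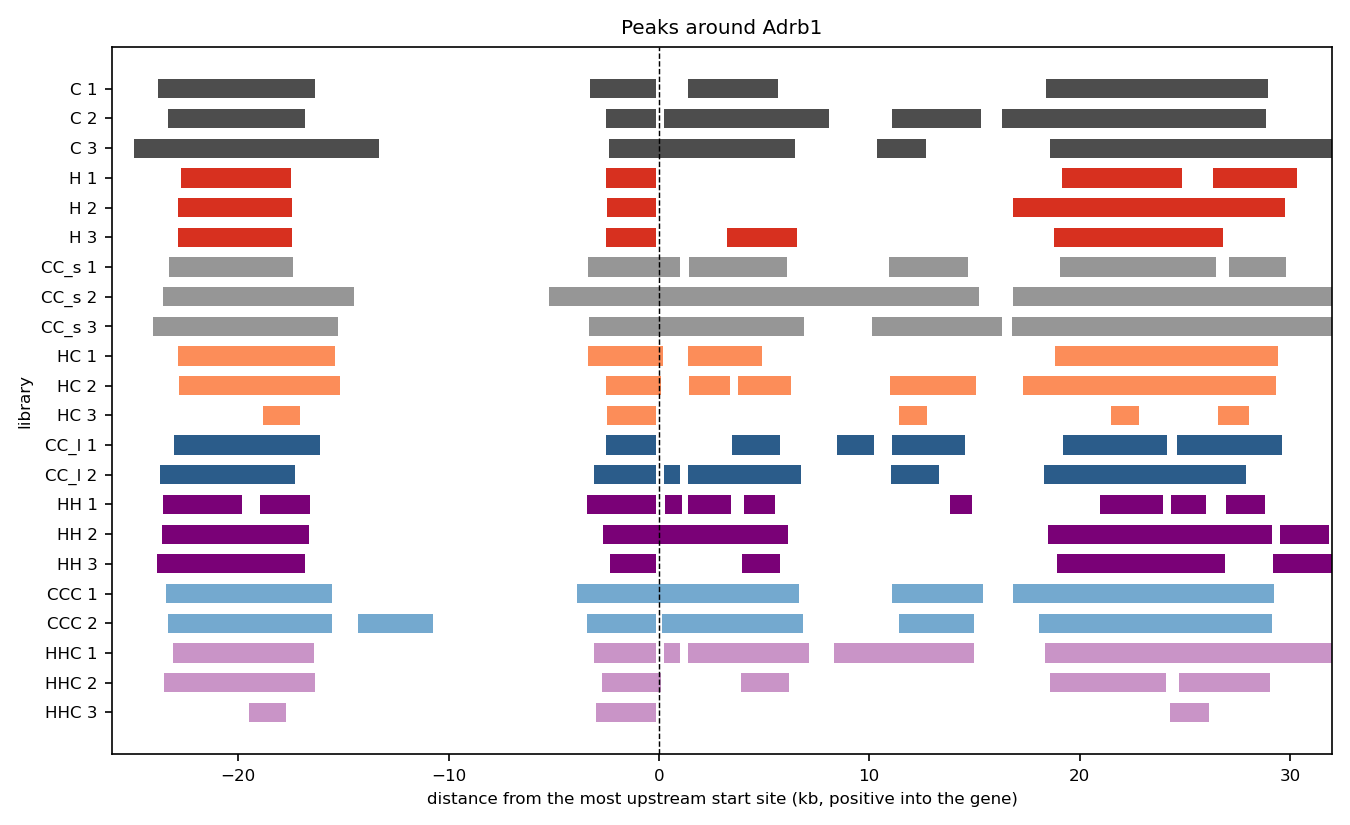
Peaks of each library around the Adrb1 start site, by distance from it in kb. The peak just upstream is present in all 22 libraries, and in the H libraries no peak covers the first 2 kb of the gene.

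After WL in the short-term arm, Adrb1 values lay below those of the controls, but the difference did not pass the adjustment. CC_s libraries were at 17.37, 17.29 and 17.53 and HC libraries at 16.46, 16.55 and 15.82. The groups did not overlap. The difference was −1.12 (95% interval −1.86 to −0.39), with an adjusted p of 0.628 by limma. Without HC 3, which stood apart in its peaks, it was −0.89. Of 12 adipocyte marker promoters 1 was called in this pair, beside 0.0866% of all promoters. It was Pparg, lower in HC at −2.74 (adjusted p = 0.0473 by limma), while the median of that list was 0.26. Its part in the Adrb1 values was not tested.

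In the long-term arm HH libraries were at 16.92, 16.95 and 16.01 and CC_l libraries at 16.31 and 17.10, which overlap, and the difference was −0.08 (95% interval −1.11 to 0.96). HHC libraries were at 17.91, 16.31 and 16.15 and CCC libraries at 17.52 and 18.08, a difference of −1.01 (95% interval −2.56 to 0.54). Without HHC 1 the last difference was −1.57, and without HHC 3, which stood apart in its peaks, it was −0.69. The obesity effect of the short-term arm minus that of the long-term arm was −1.51 (SE 0.51), with an adjusted p of 0.993 by limma, so the difference between the arms did not pass the adjustment over all promoters. After WL the arms differed by −0.11 (95% interval −1.62 to 1.40, adjusted p = 1.0 by limma).

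Over both arms together, the Adrb1 promoter differed from controls by −0.83 in obesity (adjusted p = 0.104 by limma) and by −1.06 after WL (adjusted p = 0.419). The obese value passed the call under median scaling, at −1.23 with an adjusted p of 0.0398. Without HC 3 and HHC 3 the WL value was −0.79. None of the 5 members tested in obesity and of the 6 tested after WL was called, where 2.01% and 0% of all promoters were called. Adrb1 was the 1 member with an unadjusted p below 0.05 in each, beside 19.9% and 9.36% of all promoters. Between the control groups at this promoter, CCC lay above CC_l by 1.09 (95% interval 0.06 to 2.13, adjusted p = 0.585 by limma). CC_s lay above C by 0.42 (95% interval −0.13 to 0.96, adjusted p = 0.942). Neither difference passed the adjustment.

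Npr3, the clearance receptor, moved the other way in short-term obesity. C libraries were at 19.76, 19.55 and 20.01 and H libraries at 21.18, 21.27 and 21.00, a difference of 1.38 that is given without a test because it led to the choice of the gene. All H libraries lay above all C libraries, and the promoter ranked between 26 and 31 among all promoters in H and between 96 and 180 in C.

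This rank came from summed coverage over a very wide peak. The peak over the Npr3 start site had a median length of 81.3 kb (range 5.67 to 90.3), and the gene is 67.4 kb long. The shortest peaks, of 5.67 and 5.69 kb, were those of HC 3 and HHC 3. In H it was 83.3 to 88.6 kb long and ended 79.0 to 80.4 kb downstream of the start site, and in C it was 75.3 to 87.4 kb long and ended 71.5 to 77.4 kb downstream, in both groups past the 3′ end of the gene. Its highest base had a maximum signal of 137 to 190 in H and of 222 to 429 in C. Divided by the median maximum of all peaks of the library, these were 2.91 to 3.51 in H and 2.96 to 5.05 in C, which overlap. The mean signal per base was 22.2 to 27.6 in H and 13.8 to 32.5 in C, which overlap. Maximum and mean signal are on each library's own scale, and lengths and maxima are described without a test.

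**Figure D4:**
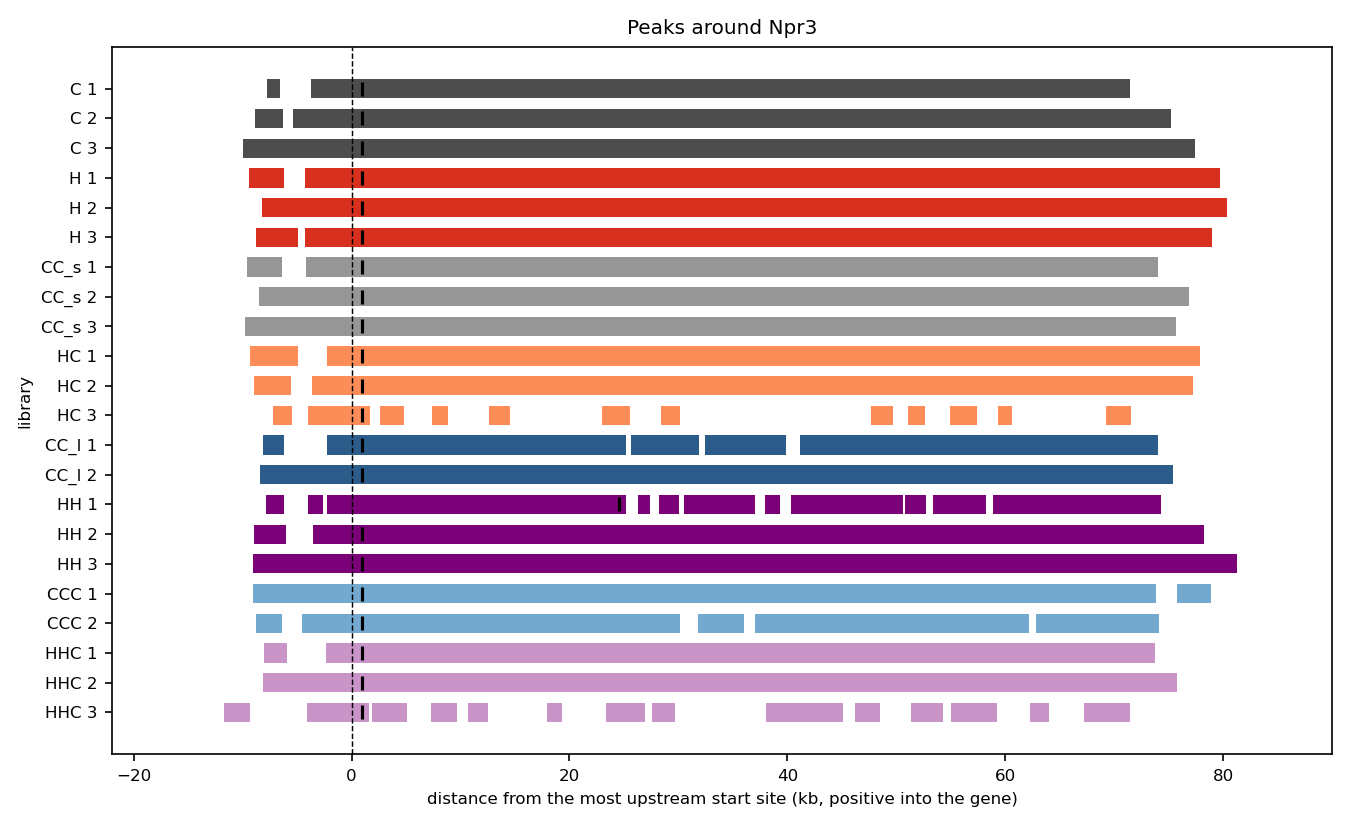
Peaks of each library around the most 5′ Npr3 start site, by distance from it in kb, with the position of the highest base marked. A single wide peak spans most of the gene in most libraries, and the highest base lies 907 to 998 bp downstream of the start site in 21 of 22.

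The highest base of the Npr3 signal recurred. In 21 of 22 libraries it lay within 100 bp of one position, between 907 and 998 bp downstream of the most 5′ start site and 615 bp or more upstream of the next start site. This is the window printed above, and it is not the RefSeq promoter with its GAA repeat. In HH 1 the highest base lay 24524 bp downstream.

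In the long-term arm, which did not enter the choice of Npr3, HH libraries were at 20.31, 20.64 and 21.08 and CC_l libraries at 19.44 and 20.23. All HH libraries lay above both CC_l libraries, the nearest values being 20.31 and 20.23. The difference was 0.84 (95% interval 0.01 to 1.68), with an adjusted p of 0.666 by limma, so it did not pass. Without HH 1, whose peaks at endothelial promoters set it apart, it was 1.02, without CC_l 1 it was 0.44 and without CC_l 2 it was 1.24. With the maximum signal in place of the total it was −0.26.

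After WL the Npr3 promoter did not stand above its controls. HC libraries were at 20.17, 20.29 and 18.54 and CC_s libraries at 20.53, 19.18 and 20.40, a difference of −0.37 (95% interval −1.69 to 0.95). HHC libraries were at 20.38, 19.46 and 18.64 and CCC libraries at 20.28 and 19.72, a difference of −0.51 (95% interval −1.88 to 0.86). HC 3 and HHC 3 gave the lowest value of each group. Without HC 3 the first difference was 0.20, and without HHC 3 the second was −0.08.

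Adrb3, the β3-receptor, kept a high promoter signal. Its values were 18.76 to 19.42 in C, 19.05 to 19.84 in H, 18.82 to 19.62 in CC_s, 19.25 to 19.77 in HC, 19.19 to 19.97 in CC_l, 18.92 to 19.86 in HH, 19.47 to 19.99 in CCC and 17.69 to 19.58 in HHC, with 17.69 in HHC 3. All 4 pairs overlapped. The differences were 0.41 for H against C (95% interval −0.26 to 1.08), 0.19 for HC against CC_s (−0.55 to 0.93), −0.05 for HH against CC_l (−1.04 to 0.94) and −0.99 for HHC against CCC (−2.50 to 0.51), so changes of 2-fold in 1 direction lie within 3 of the 4 intervals. Without HHC 3 the last difference was −0.47. Its peaks were wide, with a median length of 30.5 kb over the start site. In CC_s 2 and CCC 1 that peak was 77.4 and 70.1 kb long. It reached 53.0 kb upstream and held the highest base of the locus, which lay in a separate peak in the other libraries. CCC 1 gave the highest promoter value, 19.99.

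Npr1, the guanylyl cyclase receptor for atrial natriuretic peptide, showed no difference beyond its spread. It lay between 15.30 and 16.88 over all 22 libraries, and its differences were 0.02 for H against C (95% interval −0.58 to 0.61), 0.27 for HC against CC_s (−0.49 to 1.04), −0.01 for HH against CC_l (−0.56 to 0.55) and −0.23 for HHC against CCC (−1.04 to 0.59). The groups overlapped in every pair.

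Npr2, the receptor for C-type natriuretic peptide, was at 15.29, 15.56 and 15.55 in C and at 14.38, 15.59 and 15.47 in H, which overlap, with H 1 close to the floor. In the oldest pair, HHC libraries were at 15.48, 15.38 and 14.68 and CCC libraries at 15.78 and 16.65. All HHC libraries lay below both CCC libraries. The difference was −1.03 (95% interval −2.04 to −0.02), with an adjusted p of 0.920 by limma, and it was 0.27 with the maximum signal. Without CCC 1 it was −1.47 and without CCC 2 it was −0.59.

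Adra1a, the α1A-receptor, had a promoter peak in 20 of 22 libraries and was at the floor in HC 3 and HHC 3, the libraries that stood apart. In the other libraries it lay between 15.31 and 16.40. Its differences were −0.06 for H against C (95% interval −0.42 to 0.29), −0.09 for HC against CC_s (−1.25 to 1.08), 0.32 for HH against CC_l (−0.26 to 0.89) and −0.46 for HHC against CCC (−1.64 to 0.71). Without HC 3 the second turned to 0.49, and without HHC 3 the last was −0.03. Adra2a, the inhibitory α2A-receptor, had a peak in CC_s 3 and CCC 2 only, of 956 and 963 bp at chr19:54044451-54045413, and was at the floor in all 22 libraries, so it entered no test.

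**Figure D5:**
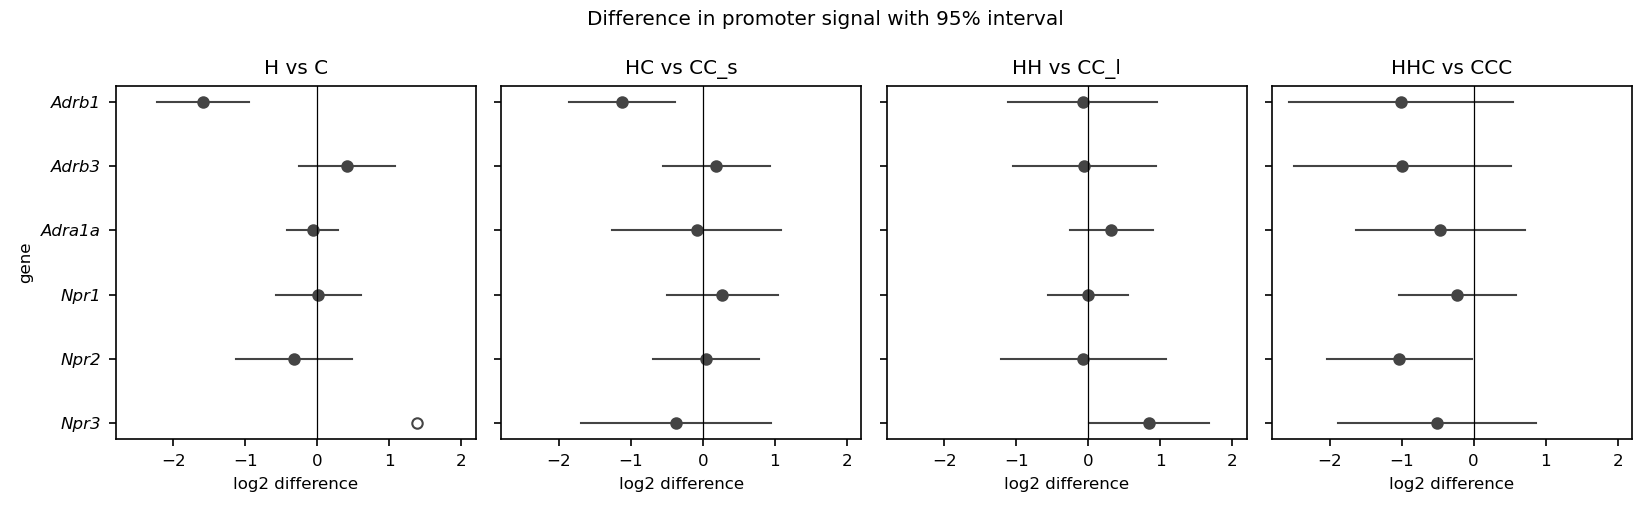
Log2 difference in promoter signal with its 95% interval for 6 members and each pair of groups, on the rank-mapped scale. Npr3 in H against C is drawn without an interval, and the interval of Adrb1 lies below 0 in H against C and in HC against CC_s.

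Over whole loci, with the signal of a peak across the edge counted by its share inside, Adrb1 and Npr2 were lower in H. Adrb1 was at 18.51, 18.60 and 18.23 in C and at 17.48, 17.60 and 17.98 in H, which do not overlap. The difference was −0.76 (SE 0.17, adjusted p = 0.0258 by limma), short of the limit of 1. Npr2 was at 17.54, 17.60 and 17.61 in C and at 16.99, 17.00 and 16.76 in H, which do not overlap, with a difference of −0.67 (SE 0.15, adjusted p = 0.0241). With a flank of 5000 bp the values were −1.82 for Adrb1 and −1.11 for Npr2, both called. With the maximum signal they were −0.08 (adjusted p = 0.846 by limma) and −0.27 (adjusted p = 0.228). In C and H that maximum lay beyond the 3′ end of each gene. It was 22154 to 22195 bp downstream of the Adrb1 start site and 24596 to 24759 bp downstream of that of Npr2. The genes are 10.9 and 19.3 kb long. On leaving out 1 library the adjusted p ran from 0.0231 to 0.105 for Adrb1 and from 0.0450 to 0.0988 for Npr2.

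No member's locus was called in H against C, where 6.29% of 17046 loci were called, and 2 of 5 tested members had an unadjusted p below 0.05, beside 33.6% of all loci. The share of members is close to the share of all loci. In HC against CC_s 0 of 6 members were called, as were 0% of all loci, and 1 member (Adrb1, −0.82, adjusted p = 0.366 by limma) had an unadjusted p below 0.05, beside 10% of all. In HH against CC_l 0.0521% of loci were called and 12.8% had an unadjusted p below 0.05, with 0 of 6 members in either. In HHC against CCC these shares were 0% and 4.11%, again with 0 of 6 members.

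Over both arms, the obese libraries differed by −0.49 at the Adrb1 locus (adjusted p = 0.0154 by limma) and by −0.58 at the Npr2 locus (adjusted p = 0.0147), neither beyond 1. These were the 2 of 5 members with an unadjusted p below 0.05, and 0 were called. Of all loci 4.88% were called and 33.6% had an unadjusted p below 0.05. After WL in both arms, Adrb1 was at −0.86 (adjusted p = 0.275 by limma) and Npr2 at −0.58 (adjusted p = 0.325), which were the 2 of 6 members with an unadjusted p below 0.05, and none was called. Of all loci 0.0765% were called and 14.4% had an unadjusted p below 0.05. At the Npr3 locus H exceeded C by 0.96, without a test, and HH exceeded CC_l by 0.29 (95% interval −0.05 to 0.62).

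The covered length was also lower in H at the Adrb1 and Npr2 loci. Peaks covered 42.3%, 59.2% and 59.2% of the Adrb1 locus in C and 28.6%, 35.0% and 31.9% in H. At Npr2 they covered 26.5%, 27.0% and 37.3% in C and 18.7%, 19.8% and 13.5% in H. Neither gene's groups overlapped, and the mean differences of −21.8 and −12.9 percentage points each had an exact two-sided permutation p of 0.1, the smallest that 3 against 3 libraries can give. Npr3 was covered over 81.62% in H and 76.6% in C on average, given without a test. In HC against CC_s, HH against CC_l and HHC against CCC the differences were −27.7, −8.02 and −25.7 points at Adrb1. At Npr2 they were −17.4, −9.14 and −12.6. The groups overlapped in all of these. In HC against CC_s, Adrb3 and Npr3 each differed by −17.7, also with overlap and with HC 3 lowest.

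Within the loci, the merged regions located these differences. Of 13 tested regions 1 was called in H against C, where 8.28% of 30840 regions were called, and 4 had an unadjusted p below 0.05, all lower in H, beside 34.9% of all regions. Of these, the 1 at Adra1a passed the filter on low values through the C libraries, where it is high, so its direction was fixed by the filter. The called region, chr4:43644651-43659046, spans 14396 bp over the 3′ part of Npr2 and its downstream flank and holds the promoters of Hint2 and Spag8. It was at 16.78, 16.66 and 16.72 in C and at 16.22, 15.38 and 15.30 in H, which do not overlap. The difference was −1.08 (SE 0.26, adjusted p = 0.0279 by limma), and this call was lost under 8 of 16 alternatives. Without C 1, C 2, H 2, C 3 or H 3 the adjusted p was 0.101, 0.114, 0.104, 0.0816 and 0.0774.

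The Adrb1 flank upstream, chr19:56697268-56711475, was called as a peak in all 22 libraries. It was at 16.56, 16.60 and 16.65 in C and at 15.69, 15.88 and 15.91 in H, which do not overlap, a difference of −0.77 (SE 0.16, adjusted p = 0.0186 by limma). The region with the Adrb1 promoter, gene and downstream flank, chr19:56716987-56766242, differed by −0.50 in H against C (adjusted p = 0.0631 by limma). In HC against CC_s it differed by −0.96 (adjusted p = 0.157). In C and H the highest base of the locus lay in this region, 22154 to 22195 bp downstream of the start site. The gene is 10.9 kb long. Under the alternatives the H against C value ran from −3.10, where a peak must cover 50% of the region, to −0.09. The last of the 4 was the exonic region of Adra1a, chr14:66730592-66737565, which carried a peak in 3 of 3 C and 1 of 3 H libraries. It was at 14.84, 15.28 and 14.36 in C and at 14.01, 14.01 and 14.37 in H, where 14.01 is the floor, and these values are given without a test.

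In HC against CC_s 0 of 14 member regions and 0% of all regions were called, and 3 member regions had an unadjusted p below 0.05, all lower in HC, beside 12% of all. They were both Adrb1 regions and the downstream flank of Npr2 at chr4:43659939-43684297 (−0.88, adjusted p = 0.366 by limma). In HH against CC_l and in HHC against CCC 0 of 15 and 0 of 14 member regions had an unadjusted p below 0.05, beside 13.7% and 6.14% of all regions, and 0% of all regions were called in both. The wide regions of Npr3 (92993 bp) and Adrb3 (89713 bp) were not called in any tested pair. Both had their smallest unadjusted p in HH against CC_l, where limma gave adjusted p-values of 0.479 and 0.551.

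The genes around the receptors in the same pathways were taken from 6 lists with 61 genes, chosen with earlier results of these data known. At promoters 0 of 48 tested genes were called in H against C (1.98% of all promoters) and 9 had an unadjusted p below 0.05, beside 21.1% of all. Over both obese arms 1 of 50 was called, beside 2.01% of all promoters, and it was higher in obesity. It was Pde7a, a cAMP phosphodiesterase, at 1.83 (adjusted p = 0.00826 by limma). Its call was lost with the replicate number as a block (1.70, adjusted p = 0.0984), with the maximum signal (0.33, adjusted p = 0.341) and without scaling (adjusted p = 0.196). At loci, 5 of 56 were called as higher, 1 of them (Nppa) from a C group at or near the floor, and 1 as lower in H against C (6.29% of all loci), with 24 at an unadjusted p below 0.05 (33.6% of all), and 6 of 58 were called as higher over both obese arms (4.88% of all). In HC against CC_s, HH against CC_l, HHC against CCC and both WL arms 0 genes of the lists were called at promoters or loci, with 2 to 11 at an unadjusted p below 0.05 in each, where the share of all promoters or loci ran from 4.11% to 14.4%.

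Phosphodiesterases and cGMP-dependent kinases, which degrade cAMP and cGMP or transmit the cGMP signal of Npr1 and Npr2, had 3 of 11 tested loci called in H against C, beside 6.29% of all loci, and 4 of 12 over both obese arms, beside 4.88%, all higher. At promoters, 5 of 9 tested genes had an unadjusted p below 0.05 in H against C (21.1% of all promoters), all higher, with a list median of 0.76 against 0.03 for all promoters. Prkg1, the cGMP-dependent kinase I, had locus values of 15.93, 15.88 and 15.87 in C and of 18.28, 17.54 and 18.35 in H, which do not overlap. It rose by 2.16 in H (SE 0.23, adjusted p = 0.00412 by limma) and by 1.87 over both obese arms (adjusted p = 0.000385). With the maximum signal the values were 0.55 and 0.51, short of 1. Of 9 tested endothelial marker loci, Cdh5 was called as higher in H, at 3.19 (adjusted p = 0.00518 by limma), and Vwf as lower, at −1.07 (adjusted p = 0.0224), beside 6.29% of all loci called. Over both obese arms 1 of 10 was called, again Cdh5, at 3.13 (adjusted p = 0.00114 by limma), beside 4.88% of all. The median of that list was 0.47 in H against C and 0.69 over both arms, beside −0.02 and −0.03 for all loci, and its part in the phosphodiesterase and Prkg1 values was not tested.

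Over both obese arms the loci of Pde7a (1.26, adjusted p = 0.000555 by limma), Pde2a (1.37, adjusted p = 0.00598) and Pde5a (1.07, adjusted p = 0.0115), of which Pde2a and Pde5a hydrolyse cGMP, were called as higher. In H against C, Pde7a was at 1.17 (adjusted p = 0.00805), Pde2a at 1.47 (adjusted p = 0.0175) and Pde5a at 0.55 (adjusted p = 0.192). The Pde2a call was lost without H 1, C 2 or H 2 in that pair (adjusted p = 0.0713, 0.0537 and 0.0772) and without CC_l 2 over both arms (0.0525), and the Pde7a locus was at 0.996 without C 2. Pde5a over both arms was at 0.84 without CC_l 1 and at 0.98 without HH 2, short of 1. With the maximum signal all of these calls were lost, at 0.42 for Pde2a and 0.47 for Pde7a in H against C, and at 0.63 for Pde2a, 0.32 for Pde7a and 0.29 for Pde5a over both arms. Without scaling they were lost too, at 0.84, 0.53, 0.92, 0.80 and 0.75 in the same order. After WL in both arms Prkg1 was at 0.67 (adjusted p = 0.416), Pde5a at 0.67 (adjusted p = 0.384), Pde7a at 0.32 (adjusted p = 0.553) and Pde2a at 0.10 (adjusted p = 0.796) by limma. A direct test of obese against WL libraries was not made.

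Of the G proteins, adenylyl cyclases and protein kinase A subunits, which carry the β-receptor signal, 1 of 19 loci was called in H against C, beside 6.29% of all loci. It was Adcy7, an adenylyl cyclase, at 1.54 (adjusted p = 0.0178 by limma), and 6 genes were higher and 5 lower at an unadjusted p below 0.05, beside 33.6% of all loci in either direction. Without H 1, C 2 or H 2 the adjusted p of Adcy7 was 0.0709, 0.0731 and 0.0758, and its value was 0.06 with the maximum signal and 0.93 without scaling. Of the natriuretic peptides and their processing enzymes, the 1 of 5 among the calls above was Nppa, the gene of atrial natriuretic peptide. Its locus was at 13.77, 14.08 and 13.77 in C, where 13.77 is the locus floor, and at 15.11, 16.43 and 15.04 in H. It passed the filter on low values through the H libraries, the group where it is high, so these values are a description and carry no test.

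Among the effectors of lipolysis and thermogenesis, the 1 locus of 10 called in H against C was Abhd5, beside 6.29% of all loci. Abhd5, the coactivator of adipose triglyceride lipase, was lower in H, at −1.03 (adjusted p = 0.0362 by limma). It lost the call under 10 of 17 alternatives, among them without C 1, H 1, C 2, H 2 or H 3 (adjusted p from 0.0532 to 0.131). C libraries were at 19.53, 19.30 and 18.49 and H libraries at 17.91, 18.00 and 18.35. Ucp1, the uncoupling protein of thermogenic fat cells, was the 1 locus of 10 called over both obese arms, beside 4.88% of all loci. Ucp1 was at 1.66 (adjusted p = 0.0249 by limma). It lost the call under 12 of 22 alternatives, among them without C 1, C 2, H 3, CC_l 1, CC_l 2 or HH 2 (adjusted p from 0.0504 to 0.129). It was at 0.34 with a flank of 5000 bp and at 0.42 with a flank of 50000 bp, and the Ucp1 promoter was at the floor in all 22 libraries. Among 8 desensitisation genes and 3 tested other adrenergic receptors 0 were called at promoters or loci in H against C, and 2 of each list had an unadjusted p below 0.05 at the locus, all lower in H, beside 33.6% of all loci in either direction.

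The promoters whose signal followed a member most closely over the 22 libraries, among 12462 genes and by Pearson's r, were Cux1 (0.89), Rtf1 (0.89) and Tmcc1 (0.87) for Adrb1, and Il20rb (0.90), Clasrp (0.86) and Pdpk1 (0.86) for Npr3. For Adrb3 the closest was Fkbp4 (0.80), for Adra1a Celf1 (0.85), for Npr1 Syt8 (0.75) and for Npr2 Pou6f1 (0.80). Among the 6 members above the floor, Adrb1 and Npr2 had the highest r (0.58) and Npr1 and Npr3 the lowest (−0.33). These values describe the libraries, which share their enrichment and their groups, and carry no p.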

How the data were processed

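The data are ATAC-seq peak lists of labelled adipocyte nuclei from 22 animals, 1 list per animal. Per the study's methods and the submitters' processing notes, the authors trimmed reads (Trim Galore 0.6.6), aligned them to GRCm38 (Bowtie2 2.4.4), and called peaks per library with SEACR 1.3 in stringent mode at a threshold of 0.01, with SAMtools 1.13 and bedtools 2.30. The deposited lists give each peak's total and maximum signal in units of coverage, with no normalization stated and no depth. The number of unmatched columns was 0.

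Mitochondrial peaks, 1 per library, were left out. Signals of promoters (2000 bp on each side of basic GENCODE vM21 start sites, overlap of 1 bp or more), loci and merged regions were ranked within each library and given the mean log2 value of that rank over all libraries, with the rest at a floor. Differences were fitted with limma 3.58.1 (R 4.3.3, empirical Bayes with a trend) over all features that passed the floor in a number of libraries no lower than the smaller group size, on the libraries of the groups compared, with Benjamini-Hochberg adjustment. Covered lengths were compared by exact two-sided permutation tests. Code was tested on simulated data, and Python 3.11.15 was used for the rest.

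The members and gene lists were chosen with earlier results of these data known. Pathway genes were named where called in a comparison, and the 3 promoters closest to a member by r were ranked. The alternatives were other filters, scalings, windows, flanks, peak subsets, the maximum signal, a replicate block, all libraries in 1 fit, and leaving out each library. Leaving out HC 3 and HHC 3 together was added after the data had been seen.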

Additional observations from a re-analysis of the deposited data

Results flagged for a closer look

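The effect of obesity at Adrb1 differed between the arms at an unadjusted p below 0.05 by a limma interaction test, in which the long-term difference (HH minus CC_l) was subtracted from the short-term one (H minus C). The value was −1.51 at the promoter (adjusted p = 0.993), −0.53 over the locus (adjusted p = 0.908) and −0.70 in the upstream flanking region chr19:56697268-56711475 (adjusted p = 0.798). The 3 measures share peaks and are not independent, and none passed the adjustment over all features. Of the members tested in this way, 1 of 5 promoters, 1 of 5 loci and 1 of 15 regions had an unadjusted p below 0.05, and after WL 0 of 6, 0 of 6 and 0 of 15 did. The shares of all promoters, loci and regions in these contrasts are not given here, so the counts have no background to be read against.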

How the results depend on the processing

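Of 314 values of 27 summary results under the alternatives, 283 stayed within their limits and 31 moved. A count stayed if it was unchanged, and a covered length if it moved by no more than the SD within groups. Most of the 27 are counts of called members that were 0 at the main settings. The share that stayed is therefore no measure of how stable the calls are. Members called at promoters in H against C went from 1 to 0 with a filter on any library, with all 22 libraries in the fit, with the maximum signal and with a window of 1000 bp, and to 0 to 1 on leaving out a library. The Adrb1 difference kept its sign and an unadjusted p below 0.05 in all 16 alternatives, from −2.40 to −0.65. At loci in H against C, 2 members were called without scaling and 2 with a flank of 5000 bp, and over both obese arms 1 was called with that flank. At promoters over both obese arms 1 was called under median scaling. At regions in H against C the count was 0 with a filter on any library, the maximum signal or the 30000 strongest peaks, 2 under median scaling, 4 without scaling, 2 where a peak must cover 50% of the region, and 0 to 1 on leaving out a library. The covered length in H against C differed by −36.0 (flank of 5000 bp) and −13.9 (flank of 50000 bp) percentage points at Adrb1, by −20.8 and −7.11 at Npr2, and by 0.35 (flank of 5000 bp) and 12.5 (relative to the covered genome) at Npr3. The sign turned for Adrb1 in HH against CC_l, which ran from −0.47 to 0.31 on leaving out a library (0.31 without CC_l 2 and 0.23 without HH 3), for Npr3 in HC against CC_s, which ran from −0.80 to 0.20 (0.20 without HC 3, with or without HHC 3), for Adra1a in HC against CC_s, which ran from −0.56 to 0.49 (0.49 without HC 3, with or without HHC 3, and 0.21 with the 30000 strongest peaks), for Npr3 in HH against CC_l, to −0.26 with the maximum signal, and for Npr2 in HHC against CCC, to 0.27 with the maximum signal. The cause was not tested.

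Deviations from group means of same-numbered libraries correlated between −0.285 and 0.208 over 10 pairs of libraries, above 0.1 in 2, both in HH against CC_l. With 2 or 3 libraries a group these values depend on each other, so they cannot exclude a pairing by replicate number. With the replicate block, members called at promoters in H against C numbered 0 (Adrb1 adjusted p = 0.140 by limma) and the Adrb1 difference in HH against CC_l was 0.23. Of 74 tested member differences 48 changed sign under 1 or more alternatives, 2 of these among the 13 at an unadjusted p below 0.05. Depth is unknown, and with 2 or 3 libraries a group the intervals span 2-fold changes at several members.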
